A study of Rattus norvegicus with 9 samples.

Results

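Expression of 9 basic leucine zipper (bZIP) transcription factor genes was examined in RBL-2H3, a cell line from a rat basophilic leukemia that serves as an MC model. The genes were chosen by symbol and comprised Atf3 and its relative Jdp2, Batf and Batf3 of the BATF family, the 3 small MAF genes Maff, Mafg and Mafk, and the 2 BACH genes Bach1 and Bach2. Each had 1 entry among the 18006 genes with a value, with the gene identifiers 25389 (Atf3), 116674 (Jdp2), 299206 (Batf), 60462 (Batf3), 366960 (Maff), 64188 (Mafg), 246760 (Mafk), 304127 (Bach1) and 313125 (Bach2). The RNA-seq samples of this 1 cell line number 9 and fall into 3 groups of 3, which the labels call Ctrl, IgE/DNP (DNP here) and PF. DNP cells were sensitized for 12 h with 50 ng/mL anti-DNP IgE and then received 100 ng/mL of the antigen DNP-HSA for 4 h. PF cells had the same sensitization and the same antigen concentration after a 1 h pretreatment with PF. The labels give this agent no other name, and its dose is not analysed here. For the PF samples 1 field gives antigen times of 4, 5 and 6 h for replicates 1, 2 and 3, and another gives 4 h for all of them. If the first field holds, PF replicates 2 and 3 differ from DNP samples in antigen time as well as in PF. In them these 2 differences cannot be told apart. Ctrl cells are called untreated in 1 field, but the protocol text shared by all samples describes sensitization and antigen, which leaves their exposure to IgE unclear. If they had none, DNP against Ctrl holds both IgE and antigen, which cannot be told apart. The words "with antigen" and "after antigen" below stand for that comparison only. The labels also name the tissue as peripheral blood, although the cells are a cultured line.

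Factors with a bZIP domain bind DNA only as dimers, so the choice of partner sets both the site that is read and the outcome. ATF3 is an immediate early and stress-induced member that often represses its targets, JDP2 is a repressor that pairs with JUN proteins, and BATF and BATF3 pair with JUN proteins to steer lymphocyte and dendritic cell differentiation. Small MAF proteins lack an activation domain. They repress as dimers with each other or with BACH1 and BACH2 and activate as dimers with the CNC factors NRF2, NRF1 and NF-E2, at antioxidant response elements of genes such as Hmox1.

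The start regions of Maff and Bach1, both higher in DNP than in Ctrl samples, are shown. They hold exact copies of sites that bZIP or EGR factors read. RefSeq promoters of the build GRCr8 (250 bases before to 50 bases after the start) were given for 8 of the 9 genes, and Atf3 was the 1 without an entry. They were searched on both strands for 5 motifs, namely TGANTCA (TRE, the AP-1 site), TGACGTCA (CRE, the CREB and ATF site), TGACNNNGC (the core of the antioxidant response element), GCGTGGGCG (the EGR site) and the CArG box read by serum response factor. Maff is shown by the 250 bases before its start, chr7:112792537-112792786 on the plus strand, with the EGR site and then the CRE in capitals. Bach1 is shown by 30 bases after its start, chr11:40425739-40425768 on the plus strand, with the TRE in capitals.
Maff: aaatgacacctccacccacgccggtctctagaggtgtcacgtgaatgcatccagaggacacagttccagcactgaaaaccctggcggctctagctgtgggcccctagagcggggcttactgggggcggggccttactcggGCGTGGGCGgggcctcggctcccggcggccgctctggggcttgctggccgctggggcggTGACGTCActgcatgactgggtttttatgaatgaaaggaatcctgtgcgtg
Bach1: cgcggagggagTGAGTCAcctgaccgccgc
The CRE of Maff lay 44 to 51 bases before the start and its EGR site 102 to 110 bases before. The CRE was present in 1.91% and the EGR site in 0.59% of the 27457 promoters of this length. In Bach1 the TRE began 29 bases after the start, and 7.33% of promoters held a TRE. The other match was an antioxidant response core in Mafk, on the reverse strand and 33 to 41 bases before the start, in a window type where 12.2% of promoters held one. The CArG box, present in 1.64% of promoters, had no match in the 8 windows. These matches describe the letters only. Whether any factor binds there was not tested.

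Levels are given as FPKM, fragments normalized for gene length and for the mapped total, which allows different genes to be set side by side. The values summed to 580702 to 591539 FPKM in Ctrl, 573023 to 582577 in DNP and 610206 to 630069 in PF samples, and for 9 of 9 samples the most similar other sample belonged to its own group. The number of reads behind each value is unknown. The labels do not say that replicates were separate cultures, so p-values measure only the spread between these samples, which may be technical. All 10 mast cell markers tested, among them Fcer1a, Ms4a2 and Kit, were at 1 FPKM or more in every sample, and their sum, much of it the proteoglycan gene Srgn, ranged from 5501.59 to 5820.35 FPKM. Single markers moved in different directions in PF samples. Tph1 was at 324.14 to 353.37 FPKM in Ctrl, 254.76 to 264.22 in DNP and 206.67 to 213.96 in PF samples, Gata2 at 386.15 to 396.22, 363.86 to 373.36 and 293.2 to 295.05, and Kit at 273.79 to 289.13, 234.14 to 241.3 and 215.61 to 238.44. Fcer1g was highest in PF samples, at 701.95 to 728.91, 631.14 to 647.51 and 785.64 to 824.44 FPKM. Of 4 T cell markers only Cd3e reached that level (6.74 to 9.52 FPKM, with Cd3d at 0 to 0.11). Of 3 B cell markers 2 had a value, and neither these nor any of the 4 macrophage markers reached it in all samples. Among 4 epithelial, endothelial and fibroblast markers, Epcam, Col1a1 and Col1a2 were at or near 0, while Pecam1, also found on blood cells, was at 43.65 to 61.78 FPKM. The summed level of these 4 was 58.78 to 61.81 in Ctrl, 55.11 to 60.74 in DNP and 43.73 to 48.38 FPKM in PF samples, so it was lower in PF, as most of the genes below were. The part of these markers in those results was not tested. In bulk RNA, fewer cells of a type and less RNA per cell cannot be told apart.

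With antigen 3 of the 9 genes rose, Atf3, Maff and Bach1, and PF samples held less of all 3 than DNP samples. In DNP against Ctrl, 8 genes had enough signal to be tested (1 FPKM or more in 3 or more of the 6 samples), of which 3 rose, 1 fell (Mafg) and 4 did not pass the limma test at an adjusted p of 0.05. Over all 10392 genes tested, 14.7% were called higher and 14.4% lower. The median log2 fold change of the 8 was 0.16, against -0.0081 over all genes. The ranges of the groups did not overlap for 5 of the 8, where 45.8% of all genes showed this. Bach2 was below the level needed in every comparison.

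PF samples differed from DNP samples in each of the 8 genes tested, with 7 lower and only Batf3 higher. Of all 10329 genes tested in this comparison 18.1% were called higher and 30.7% lower. The ranges were apart for 8 of the 8 and for 57.6% of all genes. The median log2 fold change of the 8 was -0.43, and that of all genes -0.038. The split over all genes depended on scaling. It was 26.7% higher and 25.2% lower after median-ratio scaling, which divides each sample by its median ratio to the geometric mean of the samples. It was 8.42% and 41.7% after scaling each sample to the mean sum, while the 9 genes gave 1 higher and 7 lower under both. Jdp2, 1 of the 7, reached the level needed only in DNP samples, so it entered the test through the group in which it is high.

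Against Ctrl, PF samples held more Atf3 and Batf3 and less of 5 other genes, and Bach1 did not pass the test. Of all 10361 genes, 23.1% were called higher and 34.6% lower, with 30.4% and 29.1% after median-ratio scaling and 15.2% and 41.7% after scaling to the mean sum. The genes studied gave 2 higher and 5 lower under each of these. Jdp2, among the 5, reached the level needed only in Ctrl samples, so it entered the test through the group in which it is high. Ranges were apart for 7 of the 8, against 64.8% of all genes, and the median log2 fold change was -0.30, against -0.047. The 3 comparisons share samples pairwise and are not independent of each other.

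**Figure D1:**
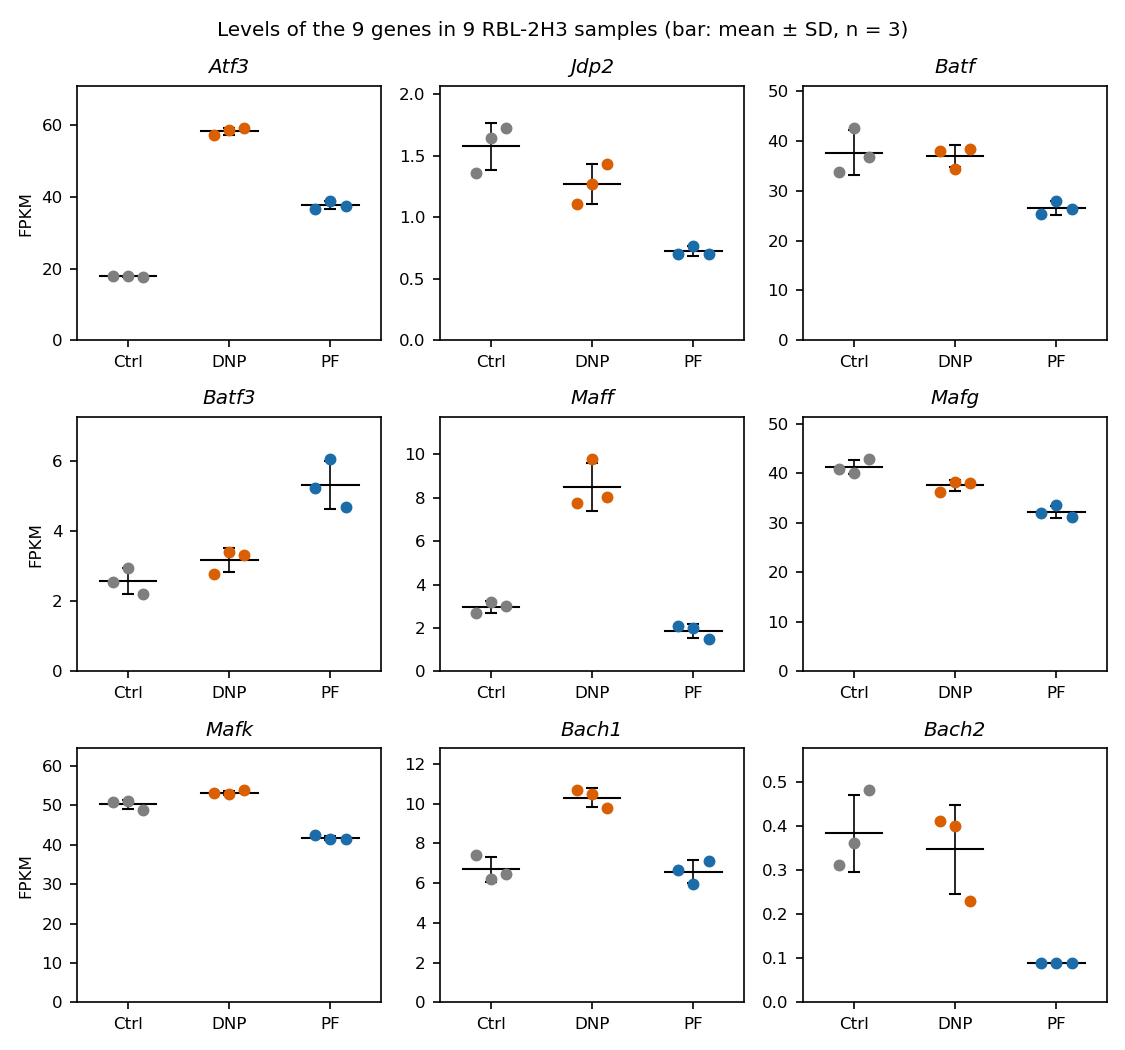
Expression in FPKM (vertical axes, each starting at 0) of the 9 genes in the Ctrl, DNP and PF samples, with 1 point per sample and a bar and whiskers for the mean ± SD (n = 3). Atf3, Maff and Bach1 are highest in DNP samples, Batf3 is highest in PF samples, and Atf3 in PF samples (36.73 to 38.84 FPKM) sits between the other groups while Maff (1.49 to 2.11 FPKM) sits below both.

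The order of the 9 genes by level changed with antigen mainly through Atf3. In Ctrl samples Mafk was highest, followed by Mafg and Batf, whose ranges overlapped, and then by Atf3, Bach1, Maff and Batf3 (overlapping), Jdp2 and Bach2. In DNP samples Atf3 stood first, above Mafk, with Mafg and Batf again overlapping and with Bach1, Maff, Batf3, Jdp2 and Bach2 following in that order without overlap. In PF samples Mafk was first again, then Atf3, Mafg and Batf, then Bach1 and Batf3 with overlapping ranges, and last Maff, Jdp2 and Bach2. Of all genes with a value, 25.6% had a higher mean than Atf3 in Ctrl, 9.39% in DNP and 14.0% in PF samples.

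Atf3, the stress- and growth factor-induced repressor, was the gene of the 9 with the largest change after antigen. It measured 17.92, 17.96 and 17.71 FPKM in Ctrl replicates 1 to 3, 57.17, 58.67 and 59.13 FPKM in DNP replicates 1 to 3, and 36.73, 38.84 and 37.49 FPKM in PF replicates 1 to 3. Every DNP sample was above every PF sample and every PF sample above every Ctrl sample. The mean was 3.26-fold higher in DNP than in Ctrl samples, with a log2 fold change of FPKM + 1 of 1.65 ± 0.0357 (SE, limma adjusted p = 1.09e-07), which ranked 11 of 10392 genes. In PF samples it fell by 0.62 ± 0.0366 relative to DNP (SE, adjusted p = 3.17e-06), and stayed 2.11-fold above Ctrl (log2 fold change 1.04 ± 0.0425, adjusted p = 1.04e-06).

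Jdp2, a JUN-binding repressor related to Atf3, was scarce and did not share its pattern. Its levels were 1.36, 1.64 and 1.72 FPKM in Ctrl, 1.11, 1.27 and 1.43 in DNP, and 0.70, 0.77 and 0.70 in PF samples. Ctrl and DNP ranges overlapped, and the difference did not pass the test (log2 fold change -0.18, 95% interval -0.41 to 0.050, adjusted p = 0.213). All 3 PF samples lay below all others and below 1 FPKM, so the gene entered the PF comparisons only through the DNP or Ctrl samples. There it fell by 0.40 relative to DNP (adjusted p = 0.00880) and by 0.58 relative to Ctrl (adjusted p = 9.75e-04). With PF replicate 1 as the only PF sample, the 1 that both label fields give 4 h of antigen, the fall relative to DNP had an adjusted p of 0.0669.

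The BATF genes differed from each other in level and in direction. Batf, best known from T and B cells, measured 33.7, 42.46 and 36.65 FPKM in Ctrl, 38.03, 34.32 and 38.24 in DNP, and 25.23, 27.95 and 26.31 in PF samples. Ctrl and DNP overlapped almost wholly, with Ctrl replicate 2 highest, whereas every PF sample was below all of them. The DNP to Ctrl log2 fold change was -0.023 (95% interval -0.21 to 0.16, adjusted p = 0.854). In PF samples Batf fell by 0.46 ± 0.0556 relative to DNP (adjusted p = 1.92e-04), to 0.719 of the DNP mean, and by 0.48 ± 0.0804 relative to Ctrl (adjusted p = 0.00103).

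Batf3, a factor needed by cross-presenting dendritic cells, was the only gene of the 9 that PF samples held most of. It measured 2.54, 2.95 and 2.21 FPKM in Ctrl, 2.79, 3.41 and 3.33 in DNP, and 5.23, 6.05 and 4.68 in PF samples. The PF samples lay above all others, while Ctrl and DNP overlapped. Its log2 fold change was 0.60 ± 0.0998 against DNP (adjusted p = 0.00121) and 0.82 ± 0.108 against Ctrl (adjusted p = 2.69e-04), or 2.07-fold in means. The DNP to Ctrl difference was 0.23 (95% interval -0.0068 to 0.47, adjusted p = 0.131). The ratio of Batf to Batf3, a quantity chosen after the values were seen, was 13.3, 14.4 and 16.6 in Ctrl, 13.6, 10.1 and 11.5 in DNP and 4.82, 4.62 and 5.62 in PF samples. It was lowest in PF without overlap (exact permutation p = 0.1 against each group, the smallest that 3 against 3 samples allow). Every PF sample had less Batf and more Batf3 than all other samples. The separation of the ratio was thus fixed by those values, and its p adds no support to them.

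The genes just described form pairs of neighbours in the rat genome. By RefSeq names for GRCr8, Batf3 is next to Atf3 on chromosome 13 and Jdp2 is next to Batf on chromosome 6, with 0 genes starting between the members of each pair. Of the first pair, PF samples held less Atf3 and more Batf3 than DNP samples. Of the second pair, they held less of both.

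**Figure D2:**
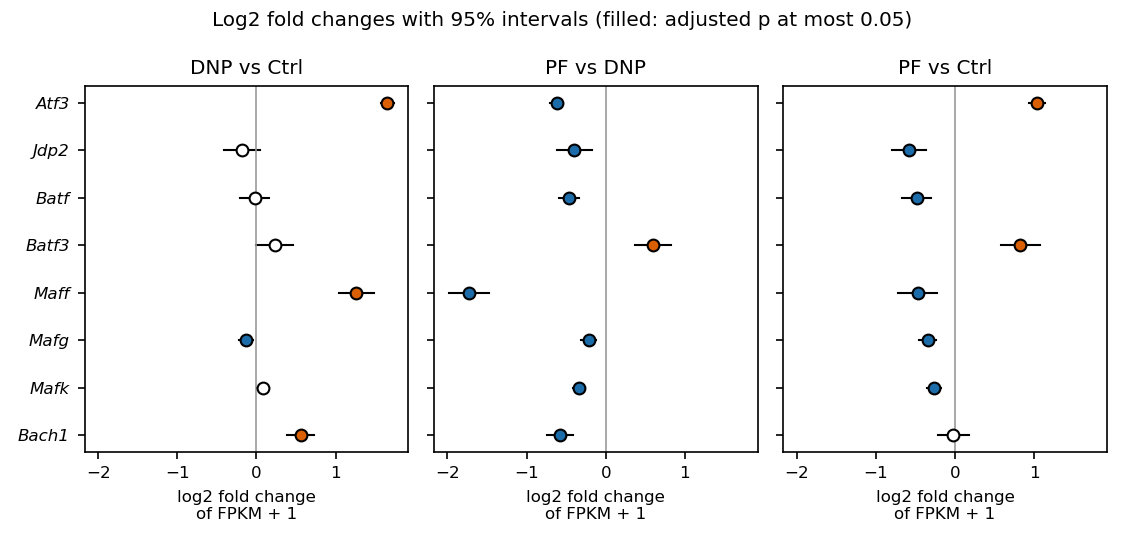
Log2 fold change of FPKM + 1 (horizontal axes) of the 8 genes tested, in DNP against Ctrl, PF against DNP and PF against Ctrl, with 95% limma intervals, filled orange for higher and blue for lower at an adjusted p of at most 0.05, and open otherwise. Atf3 (1.65) and Maff (1.26) lie far to the right in the first panel, Maff lies far to the left in the second (-1.73), and Batf3 is the only gene to the right there (0.60).

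Of the small MAF genes, which supply the obligate partners of NRF2 and BACH1, only Maff rose with antigen. Maff measured 2.67, 3.2 and 3 FPKM in Ctrl, 7.74, 9.76 and 8.01 in DNP, and 2.11, 1.98 and 1.49 in PF samples. The DNP samples were all above the rest and the PF samples all below the rest. Its mean was 2.88-fold higher in DNP than in Ctrl samples (log2 fold change 1.26 ± 0.0962, adjusted p = 1.09e-04, rank 25 of 10392). In PF samples it was 0.219 of the DNP level and fell by 1.73 (95% interval -1.99 to -1.48, adjusted p = 4.70e-06), the rank 25 from the lowest of 10329 genes. It was also lower in PF than in Ctrl samples, at -0.47 ± 0.106 (adjusted p = 0.00509). With PF replicate 1 as the only PF sample this last difference was -0.35 (adjusted p = 0.0716).

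Mafg and Mafk, the abundant small MAFs, moved little by comparison. Mafg measured 40.82, 40.07 and 42.78 FPKM in Ctrl, 36.29, 38.24 and 38.04 in DNP, and 31.92, 33.58 and 31.17 in PF samples. The 3 groups did not overlap, with Ctrl highest and PF lowest. The DNP to Ctrl log2 fold change of -0.13 ± 0.0410 passed the limma test narrowly (adjusted p = 0.0419). It did not pass under 10 of 13 alternatives, where adjusted p was 0.0508 to 0.140. Among these were both scalings and leaving out Ctrl replicate 1 or 3 or any 1 DNP sample. Under both scalings the count in DNP against Ctrl was therefore 3 higher and 0 lower. Mafg fell by 0.21 ± 0.0427 in PF relative to DNP (adjusted p = 0.00309) and by 0.35 ± 0.0462 relative to Ctrl (adjusted p = 3.03e-04).

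Mafk measured 50.78, 51.1 and 48.9 FPKM in Ctrl, 53.04, 52.86 and 53.79 in DNP, and 42.38, 41.56 and 41.35 in PF samples. Each DNP sample was above each Ctrl sample, yet the difference of 0.081 did not pass the test (95% interval 0.0034 to 0.16 before adjustment, adjusted p = 0.108). PF samples were clearly below both, by -0.34 ± 0.0329 relative to DNP (adjusted p = 4.94e-05) and -0.26 ± 0.0383 relative to Ctrl (adjusted p = 5.14e-04).

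Because FPKM is per length, the small MAF levels can be added within a sample. The sum was 94.27 to 94.68 FPKM in Ctrl, 97.07 to 100.86 in DNP and 74.01 to 77.12 in PF samples. Maff supplied 2.83, 3.39 and 3.17% of it in Ctrl, 7.97, 9.68 and 8.02% in DNP, and 2.76, 2.57 and 2.01% in PF samples. The DNP shares were the highest and the PF shares the lowest, without overlap. The mean share was 3.13% ± 0.281, 8.56% ± 0.969 and 2.45% ± 0.388 (SD, n = 3) in Ctrl, DNP and PF samples, and each pair of groups had an exact permutation p of 0.1, the smallest possible. A scaling factor per sample has no effect on these shares. Mafk made up 53.2, 53.6 and 55.1% on average, with no pair of groups below an exact permutation p of 0.2.

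**Figure D3:**
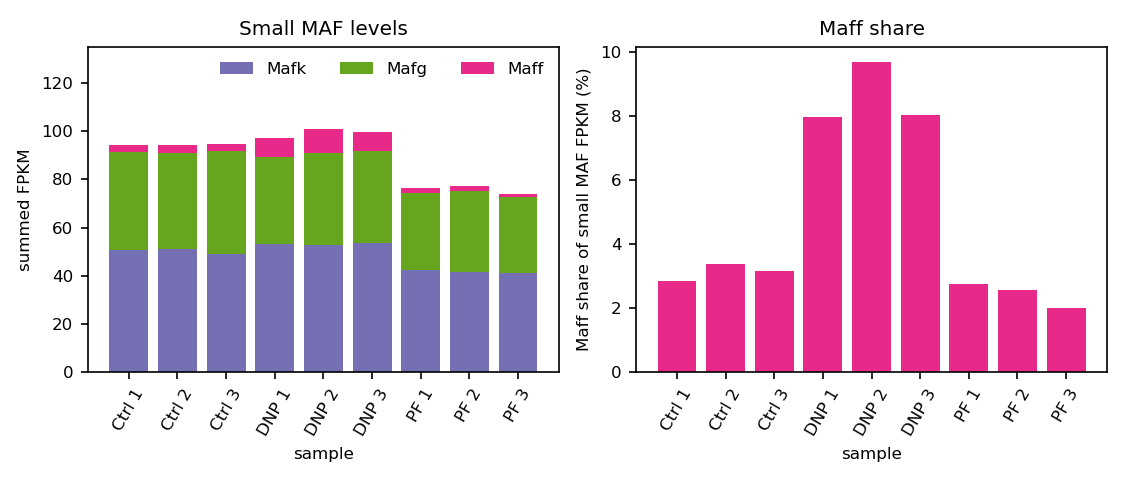
Left, FPKM of Mafk, Mafg and Maff stacked for each of the 9 samples; right, the percent of the small MAF FPKM that Maff supplied in each sample. The total is lower in the 3 PF samples (74.01 to 77.12 FPKM), and the Maff share is 7.97 to 9.68% in DNP samples and at most 3.39% in all others.

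Atf3 and Maff, both higher in DNP than in Ctrl samples, were not lowered to the same extent in PF samples. The ratio of Atf3 to Maff FPKM, chosen after the values were seen, was 6.71, 5.61 and 5.90 in Ctrl, 7.39, 6.01 and 7.38 in DNP, and 17.4, 19.6 and 25.2 in PF samples. Ctrl and DNP overlapped and PF lay above both. On the log2 scale PF exceeded DNP by 1.57 (exact permutation p = 0.1, the smallest possible), and DNP exceeded Ctrl by 0.19 (exact permutation p = 0.2).

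Bach1, the heme-sensing repressor that takes small MAF partners, was the third gene higher in DNP than in Ctrl samples. It measured 7.4, 6.2 and 6.45 FPKM in Ctrl, 10.66, 10.46 and 9.77 in DNP, and 6.67, 5.94 and 7.13 in PF samples. DNP samples were above all others, and Ctrl and PF overlapped. The log2 fold change was 0.56 ± 0.0733 in DNP against Ctrl (1.54-fold, adjusted p = 0.00118), and Bach1 fell by 0.58 ± 0.0728 in PF relative to DNP (adjusted p = 2.51e-04). Between PF and Ctrl it was -0.019 (95% interval -0.22 to 0.18, adjusted p = 0.862), with a sign that turned under median-ratio scaling.

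Bach2, a repressor best known from B and T lymphocytes, had the lowest level of the 9. It measured 0.31, 0.36 and 0.48 FPKM in Ctrl, 0.41, 0.40 and 0.23 in DNP, and 0.09 in each of the 3 PF samples. PF samples were below all others, and Ctrl and DNP overlapped. It did not enter the test. With no filter on low values it was called lower in PF than in DNP (-0.30, adjusted p = 0.00837) and than in Ctrl samples (-0.34, adjusted p = 0.00215), at levels of at most 0.48 FPKM.

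The genes whose pattern over the 9 samples was most like each gene called in DNP against Ctrl were named by the smallest root mean square difference of log2(FPKM + 1), each gene centred on its own mean. For Atf3 these were Egr2 (0.0693), an immediate early zinc finger factor, Lif (0.115), a cytokine of the interleukin-6 family, and Nr4a2 (0.158), an orphan nuclear receptor. Lif averaged 112, 307 and 234 FPKM in Ctrl, DNP and PF samples, highest in DNP and intermediate in PF as Atf3 was. Egr2 was much lower, at 0.0767, 2.46 and 1.36 FPKM. Its relative rise in DNP samples was far larger than the 3.26-fold of Atf3. It came first only on this scale, where the added 1 shrinks the changes of low genes.

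For Maff the nearest were Zswim4 (0.187), Tnfrsf12a (0.210), the receptor of the cytokine TWEAK, and RGD1560455 (0.236). Tnfrsf12a averaged 13.8, 40.6 and 11.2 FPKM and Zswim4 2.88, 7.86 and 2.31 FPKM in the 3 groups, so that both were high in DNP samples only. For Bach1 they were Ptgs2 (0.0504), the inducible cyclooxygenase, Fgd4 (0.0643) and LOC100909679 (0.0655), and Ptgs2 averaged 564, 886 and 581 FPKM. For Mafg they were Tmem39a (0.0339), Unc50 (0.0350) and Isy1 (0.0367), and Tmem39a averaged 49.0, 45.6 and 40.4 FPKM. Each nearest gene was picked for its likeness, so these values are a description.

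Partners and relatives were read from lists of bZIP genes. Of 44 other bZIP genes listed, 40 had a value and 28 were tested in DNP against Ctrl, where 8 were higher, 8 lower and 12 not called. Of all genes 14.7% were higher and 14.4% lower there. The median log2 fold change of the 28 bZIP genes was -0.010. In PF against DNP 5 of 27 were higher, 9 lower and 13 not called, about the shares of all genes (18.1% higher and 30.7% lower). In PF against Ctrl 7 of 27 were higher, 13 lower and 7 not called, against 23.1% higher and 34.6% lower of all genes. The balance in PF samples moved with scaling, to 9 higher and 9 lower (median ratio) or 3 and 14 (mean sum) against DNP, and to 7 and 10 or 5 and 16 against Ctrl. In DNP against Ctrl it was 9 and 8 or 9 and 6. The counts of the single lists below stand against the same shares of all genes.

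The FOS and JUN genes encode subunits of AP-1, and the JUN proteins are partners of ATF3, JDP2 and BATF proteins. In DNP against Ctrl 5 of 6 tested were higher and 0 lower by limma, against 14.7% and 14.4% of all genes. The counts were 5 and 0 also at an unadjusted p under 0.05. Fosb (log2 fold change 4.50), Fos (1.31), Junb (0.42) and Jund (0.41) rose most, and Fosl2 was at -0.089 (adjusted p = 0.341). In PF against DNP 3 were higher, Fos by 1.18, Jund by 0.72 and Fosb by 0.33, and Fosl2 fell by 0.43. Jun (-0.013, limma adjusted p = 0.787) and Junb (0.085, limma adjusted p = 0.163) were not called as deposited. Of all genes 18.1% were higher and 30.7% lower there. For the AP-1 genes median-ratio scaling gave 4 higher and 1 lower, and scaling to the mean sum 3 and 2. PF samples thus held more Fos, Fosb and Jund than DNP samples. Of the genes studied they held less Atf3 and Batf but more Batf3.

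The CNC genes, whose proteins need a small MAF partner, did not rise with antigen. Nfe2 fell by 0.39 (adjusted p = 0.00283) and Nfe2l1, which encodes NRF1, fell by 0.34 (adjusted p = 6.70e-04), while Nfe2l2, which encodes NRF2, was at -0.030 (adjusted p = 0.646). In PF relative to DNP Nfe2l1 fell by 0.63, Nfe2 was 0.13 higher, a call lost when each sample was scaled to the mean sum, and Nfe2l2 was at -0.075 (adjusted p = 0.173). Under that scaling Nfe2l2 was called lower (-0.17, adjusted p = 0.00984). The large MAF genes had a value for 2 of 4 and none was high enough to test.

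Among ATF and CREB genes 2 of 13 tested were higher with antigen, Creb1 (0.49), the cyclic AMP-responsive activator, and Atf6 (0.24), a sensor of endoplasmic reticulum stress. Atf2 (-0.16) and Creb3 (-0.14) were lower, both calls being lost with scaling to the mean sum, and 9 were not called. The counts were 3 and 2 after median-ratio scaling and 3 and 0 after scaling to the mean sum. In PF relative to DNP Creb1 fell by 0.71, Atf6 by 0.42 and Creb3l2 by 0.38, Creb3 was 0.17 higher and 8 of 12 were not called. Here the counts were 4 higher and 3 lower, or 0 and 5, after these scalings. Creb1 was thus highest in DNP samples and lower in PF samples, as Bach1 was. Unlike Bach1, it was also lower in PF than in Ctrl samples (-0.22, limma adjusted p = 0.0157).

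The C/EBP list had 2 genes tested, and with antigen both fell, Cebpg by 0.25 and Ddit3, the stress factor CHOP, by 0.22. Ddit3 fell by a further 0.58 in PF relative to DNP. Of 4 PAR and other bZIP genes tested, Nfil3 rose with antigen (0.40) and Xbp1 and Tef fell (-0.29 and -0.20). In PF relative to DNP Xbp1, the factor of the unfolded protein response, fell by 1.01, Nfil3 by 0.89 and Tef by 0.22.

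Genes known as targets of BACH1 and NRF2 were called about as often as all genes with antigen. Of 16 tested, 2 were higher, 3 lower and 11 not called, where 14.7% of all genes were higher and 14.4% lower, with a median log2 fold change of -0.028. Osgin1 fell by 0.67, Hmox1, the heme oxygenase gene repressed by BACH1, by 0.40 and the cystine transporter gene Slc7a11 by 0.27, while the quinone reductase gene Nqo1 rose by 0.37. In PF relative to DNP 5 of 15 were higher and 6 lower as deposited, against 18.1% and 30.7% of all genes. The counts were 7 and 5 after median-ratio scaling, and 2 and 6 after scaling to the mean sum. As deposited, the changes of largest size were those of Osgin1 (-0.82), Hbegf (-0.78), Srxn1 (-0.71) and Slc7a11 (-0.35). Hbegf was below 1 FPKM in all PF samples, so it entered this test only through the DNP samples, and it was not tested after median-ratio scaling. Under that scaling the ferritin gene Ftl1 (0.41) and Nqo1 (0.37), both higher in PF, passed Slc7a11 (-0.29) in size. Hmox1, at 103, 78.2 and 84.1 FPKM in Ctrl, DNP and PF samples, was at 0.10 in PF against DNP on the log2 scale (adjusted p = 0.0545). It was called higher after median-ratio scaling (0.17, adjusted p = 0.00828) and was at 0.0062 after scaling to the mean sum (adjusted p = 0.918).

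Stress genes that ATF4 activates, several of which ATF3 is also known to bind, did not rise with Atf3 after antigen. By limma 0 of 9 tested were higher, 6 lower and 3 not called, where 14.7% of all genes were higher and 14.4% lower. At an unadjusted p under 0.05 the counts were 0 and 7. Trib3 fell by 0.55, Sesn2 by 0.47, Gadd45a by 0.31 and Chac1 by 0.28. In PF relative to DNP 6 were lower and 2 higher as deposited, against 30.7% and 18.1% of all genes. The largest falls on the list were those of Chac1, a glutathione-degrading enzyme (-1.87), Gadd45a (-0.68), Trib3 (-0.62) and Sesn2 (-0.44). The split was 4 lower and 2 higher after median-ratio scaling, and 7 and 0 after scaling to the mean sum. Relative to Ctrl 7 of 9 were lower in PF samples and 0 higher, against 34.6% and 23.1% of all genes. After median-ratio scaling 2 were higher.

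**Figure D4:**
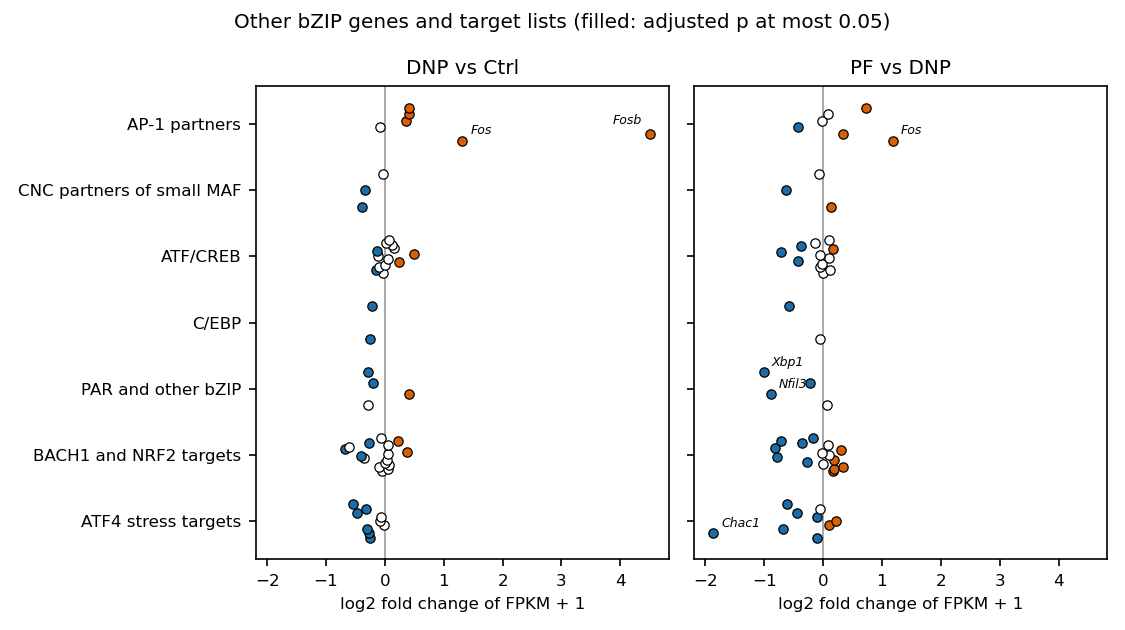
Log2 fold change of FPKM + 1 (horizontal axes) of the tested genes of 7 lists (vertical axis) in DNP against Ctrl and PF against DNP, with 1 point per gene, filled orange for higher and blue for lower at an adjusted p of at most 0.05, and open otherwise. Fosb (4.50) and Fos (1.31) stand apart to the right in the first panel, and Chac1 (-1.87) and Xbp1 (-1.01) to the left in the second.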

How the data were processed

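RNA from 9 samples of RBL-2H3 cells (3 Ctrl, 3 DNP, 3 PF, grouped by their labels) was analysed. The paper's methods describe BGISEQ-500 reads that the authors cleaned with SOAPnuke, mapped and turned into gene values with RSEM, whereas the labels mention Illumina protocols. The submitters' processing notes name HISAT2 2.0.4, Bowtie2 2.2.5, RSEM 1.2.12 and the build rn6. The values the authors deposited, with 2 decimals and no unit in their heading, are read here as FPKM, because their sums differ between samples. They are normalized for gene length and depth, so counting error and counts are unknown. Of 38490 genes listed, 20484 had no value in any sample.

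Genes that reached 1 FPKM in 3 or more of the 6 samples compared were tested on log2(FPKM + 1) by a moderated linear model with a mean-variance trend (limma 3.58.1, R 4.3.3), each comparison on its own 6 samples, with Benjamini-Hochberg adjustment over all genes tested and a threshold of 0.05. Fold changes on this scale understate the change of low genes. Single ratios and shares had two-sided exact permutation tests. The planned count test did not apply to FPKM.

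The members, gene lists and motifs were chosen with earlier results of these data known. Named beside the 9 members are the 3 genes nearest to each member called in DNP vs Ctrl, and the AP-1 and CNC genes. Up to 4 called genes per list and comparison with the largest change are named too. Hmox1 in PF vs DNP, Nfe2l2 and the ratios of Atf3 to Maff and Batf to Batf3 were not picked by size of change. Alternatives were a pseudocount of 0.1, no filter, 1 fit of all 3 groups, a replicate block, 2 scalings, no trend, each sample left out in turn and, chosen after seeing the data, PF replicate 1 as the only PF sample.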

Additional observations from a re-analysis of the deposited data

How the results depend on the processing

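The number of genes called stayed between 3 and 4 in DNP vs Ctrl, 7 and 9 in PF vs DNP and 6 and 8 in PF vs Ctrl. Of 325 log2 fold changes recomputed over the alternatives, 305 kept direction and call, 12 lost the call, 2 gained one and 6 changed sign. The sign changes were in genes that no setting called there. Batf in DNP vs Ctrl ranged from -0.097 to 0.065 with each sample left out, being positive without Ctrl replicate 2 (0.065) or DNP replicate 2 (0.026). Bach1 in PF vs Ctrl was 0.039 after median-ratio scaling and 0.00068 with PF replicate 1 as the only PF sample, and ranged from -0.071 to 0.047 with each sample left out. Of the calls lost, 10 were Mafg in DNP vs Ctrl (-0.15 to -0.11), 1 was Jdp2 in PF vs DNP and 1 was Maff in PF vs Ctrl, and the cause was not tested. A fit with PF replicate 1 alone assumes that it varies like the other samples. Jdp2 had no value in the PF comparisons when a DNP or Ctrl sample was left out, since too few samples then reached 1 FPKM, which took the counts to 7 and 6. Deviations of samples with the same replicate number had correlations of -0.074 to 0.051 in DNP vs Ctrl and -0.082 to 0.00049 in PF vs DNP. In PF vs Ctrl they were 0.083 to 0.19, each above those of different numbers (-0.13 to 0.029). Different numbers reached 0.11 in DNP vs Ctrl and 0.10 in PF vs DNP. The PF vs Ctrl values are thus at most a hint of pairing, which the labels do not give. Since not every pair passed 0.1, the numbers were not taken to pair samples. With the replicate block, 3, 8 and 7 genes were called, without Mafg in DNP vs Ctrl (adjusted p = 0.0593). Scaling moved the all-gene median log2 fold change of PF vs DNP from -0.038 to 0.019 (median ratio) or -0.13 (mean sum), and that of PF vs Ctrl from -0.047 to 0.015 or -0.12.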
